A study of Mus musculus with 21 samples.

Results

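Interferon-stimulated genes are the genes that a cell switches on after interferon binds its receptor. A list of 40 such genes was followed here in macrophages sorted from mouse kidneys. The members were found by symbol in the table of estimated counts, where lines sharing a symbol were summed, and all 40 were present among 34236 gene names. The list covers 3 transcription factors, 7 nucleic acid sensors, 5 oligoadenylate synthase (OAS) genes, 11 IFIT, Mx and other antiviral effectors, 3 genes of the ISG15 system, 5 guanylate-binding proteins and immunity-related GTPases (IRGs), and 6 others. All 40 passed the filter on low counts in every comparison.

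Type I interferons signal through the receptor IFNAR1/IFNAR2 and the kinases JAK1 and TYK2. STAT2 and IRF9 then act within a complex, ISGF3, that binds the interferon-stimulated response element (ISRE) in target promoters. Interferon gamma signals through IFNGR1/IFNGR2, JAK1 and JAK2 to the gamma-activated site (GAS) of its targets, and several guanylate-binding proteins and IRGs are known as strong targets of this arm. Macrophages hold a low tonic level of many of these genes without infection and raise them on sensing nucleic acids.

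The libraries came from male C57BL/6J mice aged 24 weeks. Kidneys were taken weeks after Sham surgery or after renal artery stenosis (RAS), in which a cuff narrows the right renal artery. F4/80+CD64+ macrophages were sorted into 3 populations, with a labelled sort time of 5 hours. CD11chi and CD11clo macrophages are labelled monocyte-derived, and kidney-resident macrophages (KRM) are a long-lived population. There were 3 Sham and 4 RAS libraries of CD11chi cells, 3 Sham and 4 RAS of CD11clo cells, and 4 Sham and 3 RAS of KRM. No source used here says whether a library pooled several mice or whether mice were shared between populations, so p-values measure the spread between these libraries. CD11chi RAS libraries 3 and 4 differed by far less than other pairs of their group, with a chi-square of their counts per degree of freedom of 4.95, against 86.8 to 118. That is above the sampling noise, so both were kept, but they may share a source, and the methods of the study list fewer CD11chi RAS and CD11clo RAS samples than the labels do. Counts without library 3 or 4, in which the pair enters once, are given with each comparison of stenotic CD11chi cells.

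The 21 libraries held 6891137 to 18592376 estimated counts over 14606 to 17702 genes. Levels are given as CPM, the count of a gene scaled to the total of its library. The messages of both sorting antigens, F4/80 (counted as Emr1, 119 to 1846 CPM) and CD64 (Fcgr1, 12.4 to 244 CPM), were present in all of them. In CD11chi Sham library 3 the summed level of 15 proximal tubule markers was 25843 CPM, against 575 and 734 in the other 2 CD11chi Sham libraries. In KRM RAS libraries 2 and 3 the 10 markers of thick limb, distal tubule and collecting duct summed to 4467 and 3336 CPM, against 4.81 to 164 in KRM Sham. KRM RAS library 1 stood apart from both of these and from its own column in the normalised table that was deposited with the counts. Across 12333 shared gene names its centred values in the 2 tables had a correlation of 0.090, against 0.915 to 0.966 for each of the other 20 libraries. Its column in the normalised table matched CD11chi RAS library 2 of the counts best, at 0.293, so that column or the counts labelled KRM RAS library 1 may hold another library, and which of them does cannot be told from these files. Results that rest on CD11chi Sham library 3 or KRM RAS library 1 are given with and without them, except for other pathway genes compared between populations. In bulk libraries of this kind fewer cells of a type and less RNA per cell cannot be told apart.

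Promoters were searched for the letters that ISGF3 and related factors are known to bind. RefSeq promoter windows on GRCm38.p6, from 250 bases before to 50 bases after the start of a gene, were matched for 30 of the 40 members. The ISRE core, spelled GAAA, any 2 bases and GAAA, and searched on both strands, was present for 19 of these 30 members (63.3%), against 1079 of 27025 genes with a window (3.99%). It was present for all 5 guanylate-binding protein and IRG genes and for all 4 nucleic acid sensors with a window, for 5 of 8 IFIT, Mx and other effectors, 2 of 4 OAS genes and 1 of 2 of the ISG15 system, and for 1 of 3 transcription factors and 1 of 4 of the others. The GAS, spelled TTC, any 3 bases and GAA, on both strands, was present for 8 of 30 members (26.7%), against 9.55% of all genes. A match is a description of the letters and was not tested as a binding site. The promoters printed here belong to 7 members with an ISRE core before the start, so they do not stand for all members that the comparisons name. Ifi44, Irf7, Irf9 and Cmpk2 had no ISRE core in their windows, and in Ifitm3 the cores lay after the start. Each is the stretch of 170 bases that ends 1 base before the RefSeq start, read 5′ to 3′ on the strand of the gene, with ISRE cores, or their reverse complement, in capitals. Isg15 is at chr4:156200819-156200988 (minus strand), Oas3 at chr5:120777660-120777829 (minus), Bst2 at chr8:71537473-71537642 (minus), Ifi205 at chr1:174031756-174031925 (minus), Gbp2 at chr3:142620493-142620662 (plus), Gbp5 at chr3:142496764-142496933 (plus) and Igtp at chr11:58199386-58199555 (plus).
Isg15: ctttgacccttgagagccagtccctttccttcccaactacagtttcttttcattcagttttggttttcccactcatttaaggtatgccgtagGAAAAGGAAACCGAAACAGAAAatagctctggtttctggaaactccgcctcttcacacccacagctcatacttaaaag
Oas3: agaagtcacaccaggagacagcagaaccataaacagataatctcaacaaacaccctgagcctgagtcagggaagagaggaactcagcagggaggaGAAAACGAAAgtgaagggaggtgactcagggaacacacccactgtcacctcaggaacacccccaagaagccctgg
Bst2: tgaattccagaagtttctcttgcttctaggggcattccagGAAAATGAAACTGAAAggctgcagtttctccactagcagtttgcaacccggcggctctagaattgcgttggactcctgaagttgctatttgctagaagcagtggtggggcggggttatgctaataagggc
Ifi205: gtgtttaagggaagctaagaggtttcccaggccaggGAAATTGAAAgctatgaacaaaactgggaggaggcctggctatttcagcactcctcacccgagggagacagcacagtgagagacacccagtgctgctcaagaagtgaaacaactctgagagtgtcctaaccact
Gbp2: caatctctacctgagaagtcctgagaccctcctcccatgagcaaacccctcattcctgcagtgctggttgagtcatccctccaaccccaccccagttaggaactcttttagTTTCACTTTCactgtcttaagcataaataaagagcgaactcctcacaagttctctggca
Gbp5: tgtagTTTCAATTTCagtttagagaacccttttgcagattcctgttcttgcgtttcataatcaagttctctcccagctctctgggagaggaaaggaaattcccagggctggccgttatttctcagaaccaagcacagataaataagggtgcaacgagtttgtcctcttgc
Igtp: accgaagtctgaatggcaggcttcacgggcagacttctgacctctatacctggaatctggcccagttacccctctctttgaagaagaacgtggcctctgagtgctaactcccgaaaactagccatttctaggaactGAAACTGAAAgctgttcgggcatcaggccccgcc
Isg15 held 3 overlapping ISRE cores in this stretch and Bst2 held 2. The other 5 held 1 each, which lay nearest to the start in Igtp and farthest from it in Gbp5.

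**Figure D1:**
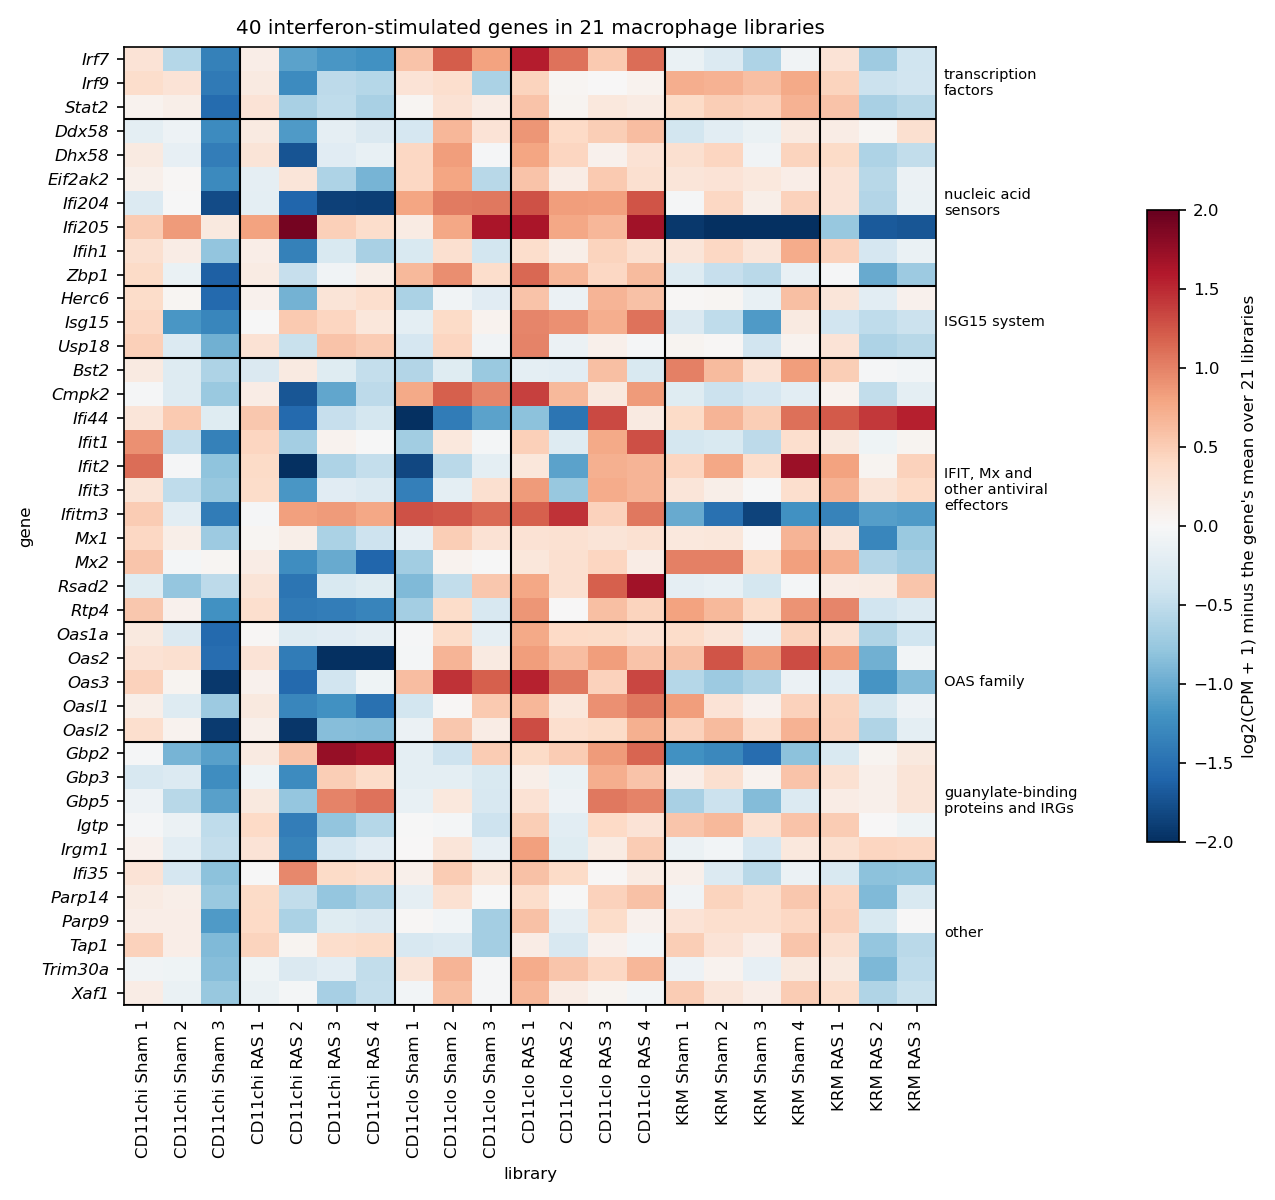
Levels of the 40 interferon-stimulated genes (rows, grouped by role) in the 21 libraries (columns), as log2(CPM + 1) minus the mean of the gene over all libraries, with colours capped at -2 and 2. CD11chi Sham library 3 is pale or blue in nearly every row, the CD11clo RAS libraries are mostly red, and Ifi205 and Ifitm3 are blue in all 7 KRM libraries.

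Ifitm3 had the highest level in every group. Values are CPM scaled with TMM factors computed over the 21 libraries. Ifitm3, a membrane protein that stops viruses from leaving endosomes, had the highest mean in all 6 groups, from 287 ± 70.3 CPM in KRM Sham (SD, n = 4) to 1712 ± 90.8 CPM in CD11clo Sham (SD, n = 3). It also had the highest level per kilobase of transcript in all 6 groups. Bst2, the tetherin that holds budding virus on the cell surface, was next per kilobase in all 6, at 192 CPM per kilobase in KRM Sham and 81.7 in CD11clo Sham. At the low end of mean CPM stood Ifi44 in CD11clo Sham (2.52 ± 1.38 CPM, SD, n = 3), Ifi205 in KRM Sham (5.06 ± 0.572 CPM, SD, n = 4) and Mx2 in CD11chi RAS (5.08 ± 3.62 CPM, SD, n = 4). Mx2 is annotated as a polymorphic pseudogene in GENCODE. The IFIT, OAS, Mx, guanylate-binding protein and Ifi200 genes have close paralogs, the treatment of shared reads is not given in the sources used here, and the library kit does not mark strand, so single members of these families are less certain than Irf7 or Isg15.

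Libraries moved as wholes as well as gene by gene. The median over the 40 members of the log2 CPM, taken relative to the mean of each gene, ran from -1.13 in CD11chi Sham library 3 to 0.69 in CD11clo RAS library 1. It was 0.20 to 0.69 in the 4 CD11clo RAS libraries and -0.14 to 0.36 in the 3 CD11clo Sham libraries. In KRM it was 0.17, 0.25, -0.0044 and 0.45 in Sham and 0.30, -0.55 and -0.20 in RAS. CD11clo RAS was the one group with every library above 0.

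The Sham libraries ask how resident and monocyte-derived macrophages differ without stenosis. The summed level of the 40 members was 2891 to 4013 CPM in the 4 KRM libraries and 4394 to 5257 CPM in the 3 CD11clo libraries, so it was lower in every KRM library. Ifitm3 carried this gap, since the other 39 members summed to 2687 to 3696 CPM in KRM and 2607 to 3517 CPM in CD11clo cells, which overlapped. KRM had more message of antiviral effectors such as Ifi44, Ifit2, Bst2 and Mx2 and of the peptide transporter Tap1. CD11clo cells had more Ifitm3, Ifi205, Oas3, Cmpk2, Irf7, Gbp2 and Zbp1. In edgeR 10 members were higher in KRM and 9 lower at an adjusted p under 0.05, out of 40, while 41.7% of all 12399 genes tested were called (19.4% higher and 22.3% lower). The median log2 difference over the members was 0.08, and over all genes it was -0.04. The share of members called, 47.5%, was thus near that of all genes. Other markers separated the same groups. Neutrophil markers (10 genes) summed to 1012 to 2537 CPM in CD11clo Sham and 6.69 to 10.1 CPM in KRM Sham, and dissociation stress genes to 14868 to 25697 CPM and 27429 to 42397 CPM. Proximal tubule markers summed to 8838 CPM in CD11clo Sham library 3, against 302 and 234 CPM in the other 2, and without that library 11 members were higher in KRM and 12 lower, with 46.9% of all genes called. In KRM Sham library 3 they summed to 4472 CPM, against 1034 to 1125 CPM in the other KRM Sham libraries. The part of these in the differences was not tested.

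Among the effectors, Bst2 stood at 212, 164, 129 and 189 CPM in the 4 KRM Sham libraries and at 69.9, 88.9 and 62.7 CPM in the 3 CD11clo Sham libraries. The groups did not overlap, and the log2 difference was 1.20 ± 0.20 (SE, edgeR adjusted p = 0.00126). Ifi44, an interferon-induced protein of the cytoplasm, stood at 12.0, 14.9, 12.96 and 20.3 CPM in KRM and at 1.03, 2.78 and 3.76 CPM in CD11clo cells. Its log2 difference was 2.56 ± 0.42 (SE, edgeR adjusted p = 0.00129). Ifit2, which binds viral RNA, was 92.1, 117, 87.2 and 227 CPM in KRM against 18.6, 46.7 and 59.5 CPM, a log2 difference of 1.63 ± 0.50 (SE, edgeR adjusted p = 0.0366). Its neighbours on chromosome 19 gave other values, with log2 differences of -0.08 ± 0.27 (SE) for Ifit1 and 0.43 ± 0.33 (SE) for Ifit3, neither of which passed. Mx2 (1.06 ± 0.27, SE, edgeR adjusted p = 0.0118), Rtp4, Tap1 and Igtp were also higher in KRM without overlap. Tap1, which carries peptides to MHC class I, was 286, 244, 223 and 299 CPM in KRM and 162, 167 and 125 CPM in CD11clo cells. Igtp, an IRG that acts on pathogen vacuoles, was 91.2, 96.7, 76.4 and 91.7 CPM against 61.2, 59.8 and 45.6 CPM.

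In the other direction Ifitm3 was 366, 261, 204 and 317 CPM in KRM Sham and 1786, 1739.5 and 1611 CPM in CD11clo Sham. Its log2 difference was -2.60 ± 0.20 (SE, edgeR adjusted p = 1.32e-05), a 6.08-fold lower level in KRM. Ifi205, a DNA-binding protein of the Ifi200 family, was 5.65, 5.08, 5.23 and 4.29 CPM against 27.3, 42.3 and 77.8 CPM, a log2 difference of -3.28 ± 0.32 (SE, edgeR adjusted p = 6.39e-05). Both genes separated the populations in every library. Oas3, an enzyme that makes the oligoadenylate signal for RNase L, was 24.7, 22.1, 24.3 and 34.2 CPM against 57.6, 103 and 86.4 CPM. Its log2 difference was -1.67 ± 0.22 (SE, edgeR adjusted p = 0.000343), while Oas2 in the same cluster on chromosome 5 was higher in KRM (0.70 ± 0.23, SE, edgeR adjusted p = 0.0347). The mitochondrial nucleotide kinase Cmpk2 was lower by -1.35 ± 0.15 (SE), Gbp2 by -1.25 ± 0.23, Irf7, the factor that amplifies type I interferon, by -1.17 ± 0.18, and the sensor Zbp1 by -1.05 ± 0.17. The partners of ISGF3 were not called, with Irf9 at 0.61 ± 0.23 (SE, edgeR adjusted p = 0.0577) and Stat2 at 0.33 ± 0.12 (SE, edgeR adjusted p = 0.0539). Isg15, Usp18, Mx1 and Oasl2 did not pass either. Correlations of same-numbered Sham libraries did not always exceed those between other numbers. With the replicate number as a block 8 members were higher and 8 lower, since Gbp3, Ifi35 and Parp9 no longer passed (adjusted p = 0.0634, 0.0677 and 0.0772). No share of all genes is given for that fit, so these counts show only which calls were lost.

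**Figure D2:**
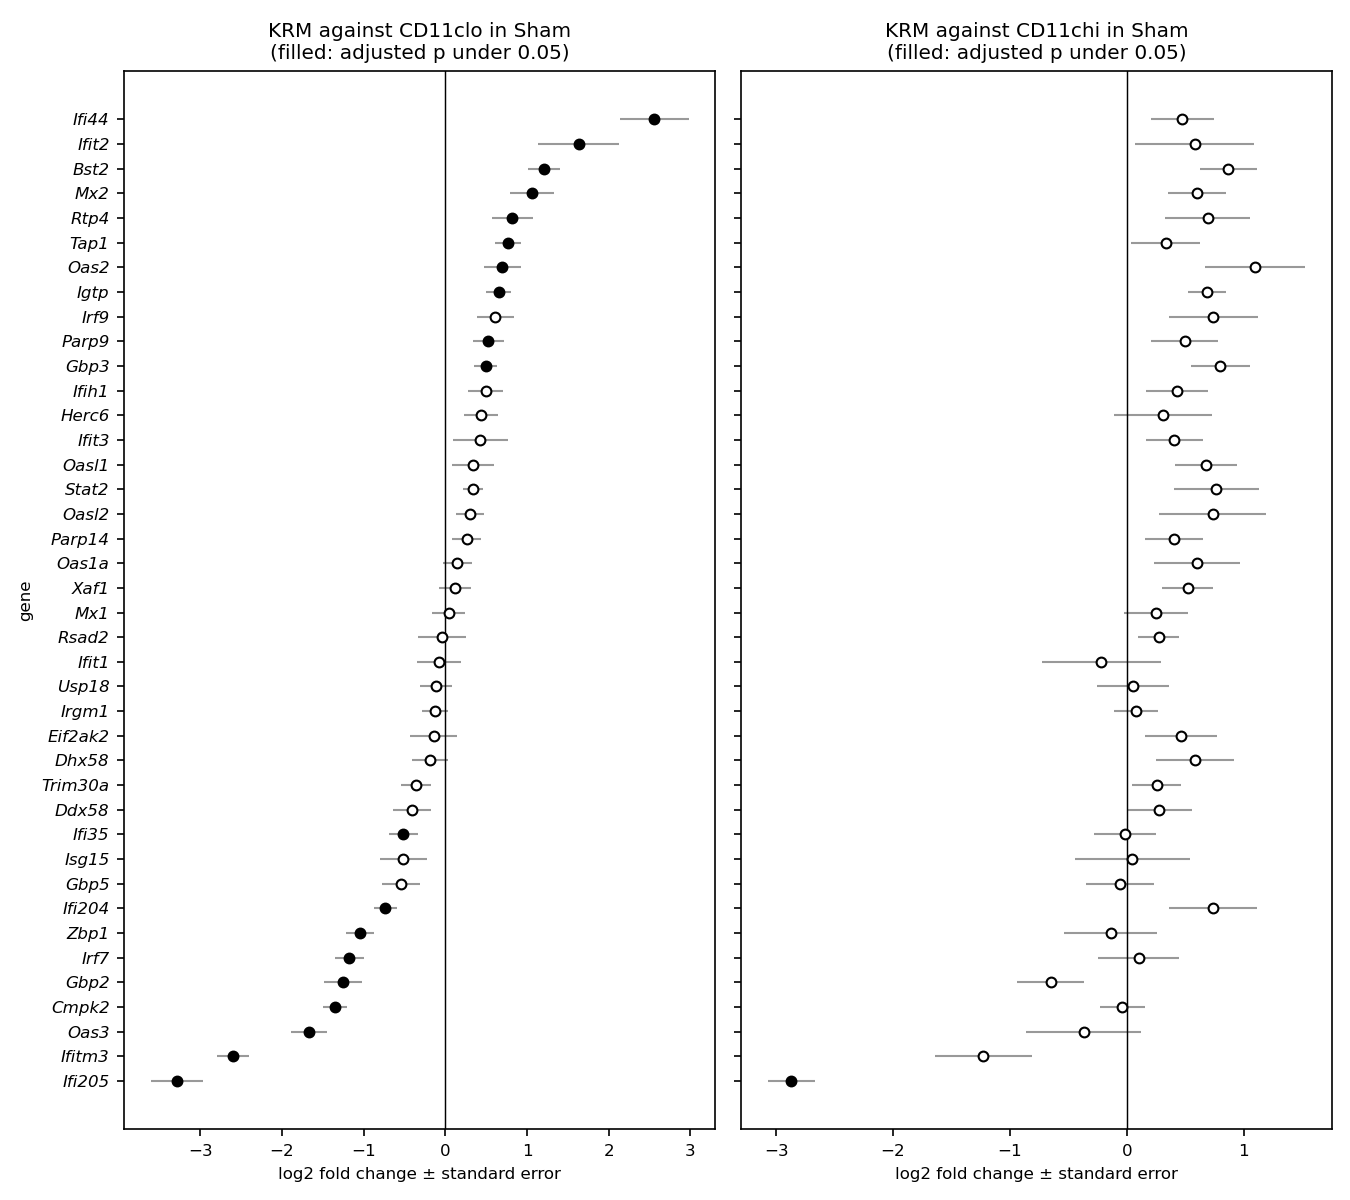
Log2 fold change with its standard error for each of the 40 genes (rows) in KRM against CD11clo cells (left) and KRM against CD11chi cells (right) in Sham kidneys, each panel on its own scale. Filled points had an adjusted p under 0.05, 19 on the left and 1, Ifi205, on the right.

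Between KRM and CD11chi cells in Sham kidneys only Ifi205 was called, while 5.18% of 12404 genes were. CD11chi Sham libraries held 35.1, 44.7 and 28.1 CPM of Ifi205, and every KRM library held 5.65 CPM or less. The log2 difference was -2.87 ± 0.20 (SE, edgeR adjusted p = 0.00213). Igtp (0.68 ± 0.16, SE, edgeR adjusted p = 0.0569) and Bst2 (0.87 ± 0.24, SE, edgeR adjusted p = 0.0890) had higher values in every KRM library without passing. The median over the members was 0.40, against -0.07 over all genes. CD11chi Sham library 3 bore on this. It lay below both other CD11chi Sham libraries in 38 of 40 members (95%), as it did in 49.7% of all genes, and its summed level of 12 macrophage identity genes was 5040.3 CPM against 9520.3 and 13227 CPM. Without it 2 members were higher in KRM (Gbp3 by 0.57 ± 0.16 and Igtp by 0.58 ± 0.13, SE) and 3 lower (Ifi205, Ifitm3 by -1.57 ± 0.25 and Oas3 by -0.80 ± 0.20, SE), with 14.2% of all genes called and a median over the members of 0.19. Conventional dendritic cell markers summed to 443 to 1903 CPM in CD11chi Sham and 126 to 158 CPM in KRM Sham. Neutrophil markers summed to 50.4 to 160 and 6.69 to 10.1 CPM in the same order. Neither sum overlapped between the groups. The part of tubule RNA and of these cells in the values was not tested.

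CD11chi and CD11clo cells in Sham kidneys gave no call among the members in edgeR, where 1.61% of 12105 genes were called. At an unadjusted p under 0.05 there were 5 members (12.5%), against 17.7% of all genes, and DESeq2 called 4. The smallest p belonged to Cmpk2, at 28.8, 24.1 and 16.95 CPM in CD11chi cells and 50.1, 68.4 and 58.0 CPM in CD11clo cells. The groups did not overlap, and the log2 difference was -1.27 ± 0.23 (SE, edgeR adjusted p = 0.0552), which passed with the replicate number as a block (adjusted p = 0.0463). Ifi44 (2.11 ± 0.55, SE, edgeR adjusted p = 0.121) and the DNA sensor Ifi204 (-1.44 ± 0.42, SE, edgeR adjusted p = 0.153) followed. Without CD11chi Sham library 3 Cmpk2 and Ifi204 were called lower in CD11chi cells (5% of the members, against 6.30% of all genes). Members at an unadjusted p under 0.05 were 10 without CD11chi Sham library 1 and 3 without CD11chi Sham library 2 or CD11clo Sham library 2. These counts have no share of all genes beside them and show only how far the number moved. Neutrophil markers summed to 50.4 to 160 CPM in CD11chi Sham and 1012 to 2537 CPM in CD11clo Sham. Classical monocyte markers summed to 625 to 2923 and 6604 to 14056 CPM. Neither sum overlapped between the groups, and the part of these cells was not tested.

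**Figure D3:**
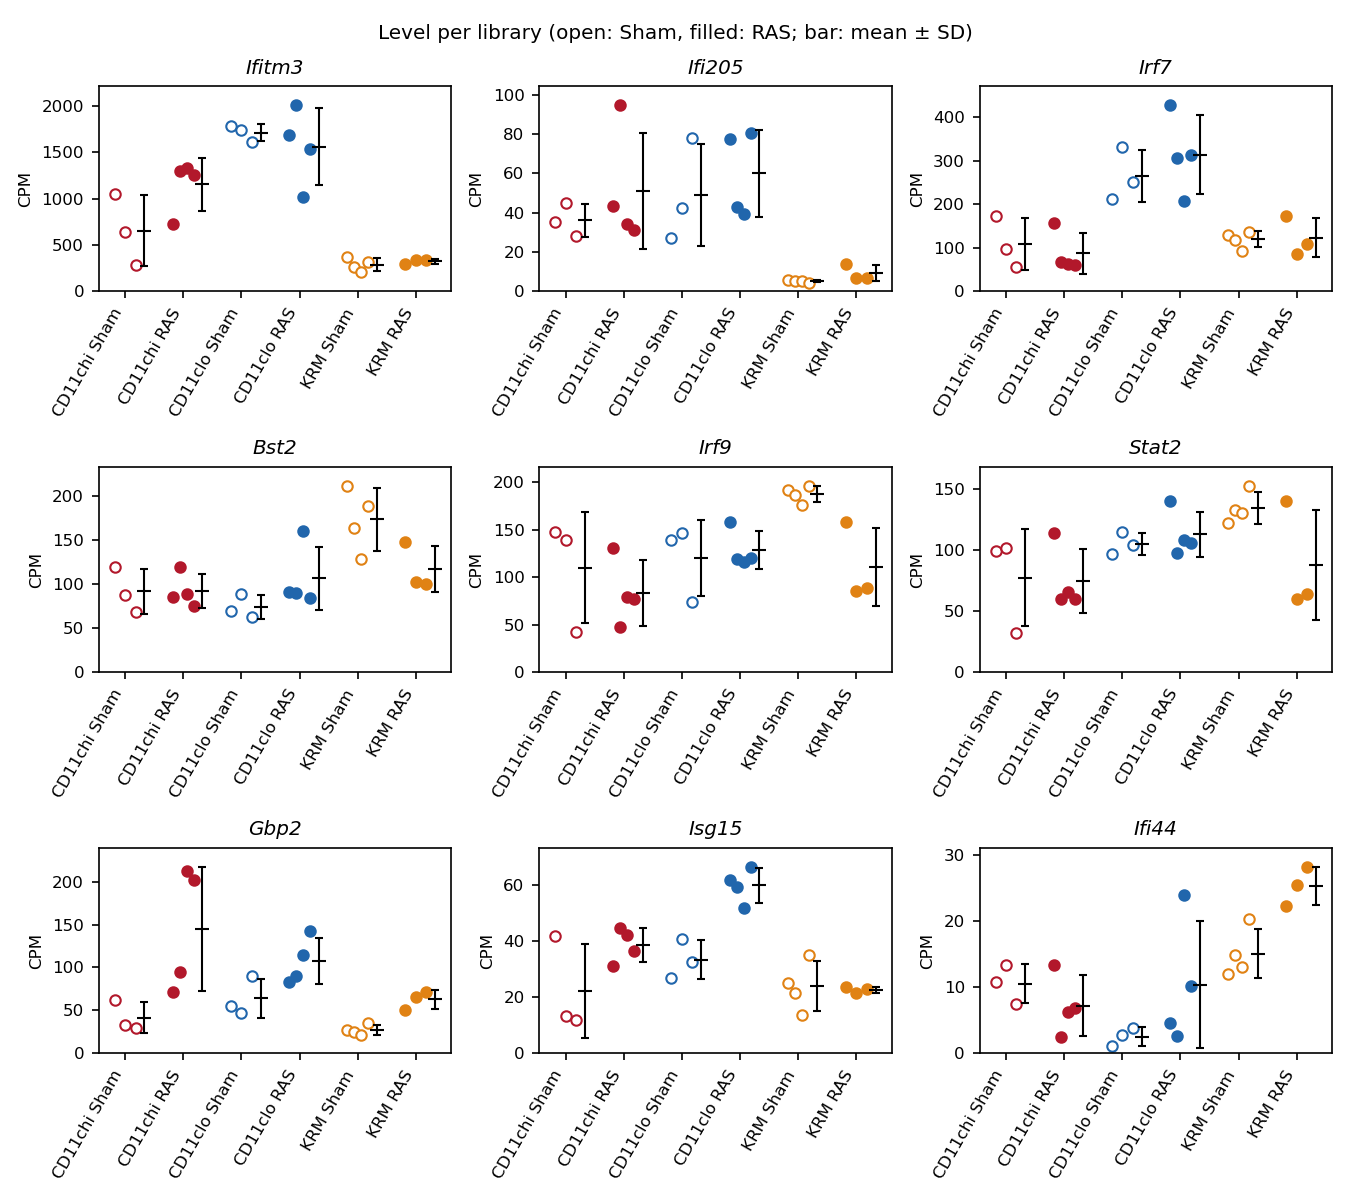
CPM of 9 members in each library, by group (open circles Sham, filled circles RAS), with the mean and SD of each group as a bar beside the points. Ifitm3 and Ifi205 are low in all KRM libraries, Irf9 and Stat2 are split in KRM RAS between library 1 and libraries 2 and 3, and Gbp2 is higher in RAS than in Sham in every KRM library.

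The same 3 comparisons were made in stenotic kidneys, and each shares libraries with the other 2. KRM against CD11clo cells gave 7 members lower in KRM and 0 higher, while 5.49% of 13179 genes were called lower and 8.29% in either direction. Isg15, the ubiquitin-like modifier, was 23.5, 21.5 and 22.7 CPM in KRM RAS and 61.9, 59.4, 51.7 and 66.5 CPM in CD11clo RAS. The values did not overlap, and the log2 difference was -1.37 ± 0.16 (SE, edgeR adjusted p = 0.0146). Ifitm3 was lower in KRM by -2.23 ± 0.30 (SE, edgeR adjusted p = 0.0149), with 292, 341 and 337 CPM against 1686, 2015, 1016 and 1536 CPM. Ifi205 was lower by -2.67 ± 0.41, Oas3 by -1.85 ± 0.34, Zbp1 by -1.25 ± 0.28, Ifi204 by -1.14 ± 0.25 and Ifi35 by -0.90 ± 0.21 (all SE). Irf7 had values of 173, 86.8 and 109 CPM in KRM and 429, 307, 207 and 313 CPM in CD11clo cells and lay at the threshold (-1.32 ± 0.33, SE, edgeR adjusted p = 0.05005). The median over the members was -0.51 and over all genes 0.06. The count was 16 without KRM RAS library 1 (22.6% of all genes), 3 without CD11clo RAS library 1 (3.65%), 1 without CD11clo RAS library 4 (0.648%), and 0 without CD11clo RAS library 2 (0.192%) or KRM RAS library 2 or 3 (0% each). Without CD11clo RAS library 3 there were 1 higher and 9 lower (15.6%). In that library macrophage identity genes summed to 18515 CPM, against 7402 to 9378 CPM in the other CD11clo RAS libraries. Its classical monocyte markers summed to 3370 CPM, against 6981 to 9319 CPM. Neutrophil markers summed to 2161 to 3796 CPM in CD11clo RAS and 6.87 to 24.3 CPM in KRM RAS, and thick limb and collecting duct markers were at 4.05 to 287 CPM in CD11clo RAS, beside the 4467 and 3336 CPM of KRM RAS libraries 2 and 3. The part of these was not tested.

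CD11chi cells of stenotic kidneys also lay below CD11clo cells. In edgeR 6 members were lower in CD11chi cells and 0 higher, while 3.08% of 12305 genes were called lower and 8.26% in either direction. Ifi204 was 106, 39.97, 32.6 and 32.4 CPM in CD11chi RAS and 296, 218, 216 and 293 CPM in CD11clo RAS. This was a log2 difference of -2.28 ± 0.40 (SE, edgeR adjusted p = 0.0124), 4.85-fold. Irf7 was 158, 67.6, 63.1 and 61.2 CPM in CD11chi RAS, with every value below the CD11clo libraries (-1.85 ± 0.37, SE, edgeR adjusted p = 0.0182). Oasl1, a repressor of Irf7 translation, was 17.999, 5.71, 6.15 and 4.86 CPM against 25.2, 18.4, 30.3 and 33.6 CPM (-1.62 ± 0.43, SE, edgeR adjusted p = 0.0477). Oas3 (-1.55 ± 0.36), Cmpk2 (-1.504 ± 0.40) and Trim30a (-0.87 ± 0.18, all SE) were the other 3. Groups did not overlap for 14 of 40 members (35%), all lower in CD11chi cells, against 7.28% of all genes. CD11chi RAS library 1 lay above the other 3 CD11chi RAS libraries in 27 of 40 members (67.5%), as it did in 29.8% of all genes, and its T and NK cell markers summed to 328 CPM against 88.6 to 155. Without it 19 members were lower, Oas2 most (-2.89 ± 0.41, SE), with 17.4% of all genes called. The count was 3 without CD11chi RAS library 2 (4.62%), 2 without CD11clo RAS library 1 (4.93%), and 1 without CD11chi RAS library 3 or 4 or CD11clo RAS library 2 or 4 (2.01, 2.19 and 2.45% for the first 3 of these, and 2.5% for the last). CD11chi RAS libraries 3 and 4 held 5173 and 5472 CPM of 10 conventional dendritic cell markers, against 1158 and 2333 in libraries 1 and 2 and 464 to 747 in CD11clo RAS. Neutrophil markers summed to 8.497 to 302 CPM in CD11chi RAS and 2161 to 3796 CPM in CD11clo RAS, and classical monocyte markers to 1142 to 2667 and 3370 to 9319 CPM, without overlap. The part of these cells in the values was not tested.

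KRM against CD11chi cells in stenotic kidneys gave 2 members lower in KRM, Ifitm3 (-1.78 ± 0.31, SE, edgeR adjusted p = 0.0257) and Ifi205 (-2.43 ± 0.50, SE, edgeR adjusted p = 0.0347), while 8.75% of 13226 genes were called. CD11chi RAS libraries held 724, 1299.8, 1334 and 1255 CPM of Ifitm3 and 43.3, 94.8, 34.4 and 31.3 CPM of Ifi205, against 13.9, 6.95 and 6.78 CPM of Ifi205 in KRM RAS. Neither gene overlapped between the groups. Ifi44 lay just outside the threshold, higher in each KRM library (1.87 ± 0.48, SE, edgeR adjusted p = 0.0504). Conventional dendritic cell markers summed to 1158 to 5472 CPM in CD11chi RAS and 179 to 611 CPM in KRM RAS, and thick limb and collecting duct markers to 5.87 to 168 CPM in CD11chi RAS, beside the 4467 and 3336 CPM of KRM RAS libraries 2 and 3. Their part was not tested. Calls changed with single libraries. Without CD11chi RAS library 1 there were 8 higher and 5 lower, with 7.98% and 9.48% of all genes. Without KRM RAS library 1 there were 1 higher and 4 lower, with 12.5% and 6.59% of all genes. Without CD11chi RAS library 2, 3 or 4 or KRM RAS library 2 or 3 there were 0, with 0.103 to 1.37% of all genes called.

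Stenosis against Sham within each population asks whether the narrowed artery moved interferon-stimulated genes. In KRM 3 members were higher in RAS, Gbp2, Gbp5 and Ifi44, and 0 were lower, while 8.54% of 12852 genes were called (6.80% higher and 1.74% lower). The share of members called, 7.50%, was below that of all genes. Gbp2, a GTPase that coats pathogen membranes, was 26.7, 25.3, 21.4 and 35.1 CPM in KRM Sham and 50.6, 65.5 and 71.9 CPM in KRM RAS. Every RAS value lay above every Sham value, and the log2 difference was 1.32 ± 0.20 (SE, edgeR adjusted p = 0.0187), 2.501-fold. Gbp5, of the same family and the same chromosome, was 9.74, 11.4, 8.18 and 12.96 CPM against 17.6, 17.04 and 19.1 CPM (0.87 ± 0.19, SE, edgeR adjusted p = 0.0368). Ifi44 was 12.0, 14.9, 12.96 and 20.3 CPM against 22.3, 25.4 and 28.1 CPM (0.86 ± 0.20, SE, edgeR adjusted p = 0.0444). Isg15 did not pass, with 25.1, 21.6, 13.7 and 35.1 CPM in Sham and 23.5, 21.5 and 22.7 CPM in RAS (0.03 ± 0.28, SE). The count was 0 without KRM Sham library 1 or 2 or KRM RAS library 2 or 3, where 0.192 to 0.393% of all genes were called. It was 1 without KRM Sham library 3 (9.79% of all genes) or 4 (0.322%).

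KRM RAS library 1 decided how the remaining members were called. In it 26 of 40 members lay within the range of the 4 KRM Sham libraries, 13 above it and 1 below (65%, 32.5% and 2.5%), against 53.6%, 18.8% and 27.6% of all genes. In KRM RAS libraries 2 and 3 24 members (60%) were below every KRM Sham library in both, against 37.0% of all genes, and 6 (15%) were above in both, against 27.6% of all genes. Irf9 was 192, 187, 176 and 196 CPM in KRM Sham and 158, 85.3 and 88.3 CPM in KRM RAS. Stat2 was 123, 133, 130.2 and 153 CPM in Sham and 140.0, 59.8 and 64.0 CPM in RAS. With all 3 RAS libraries neither partner of ISGF3 was called (Irf9 at -0.67 ± 0.22, SE, edgeR adjusted p = 0.0824, and Stat2 at -0.52 ± 0.29, SE, edgeR adjusted p = 0.238). Without library 1 both were, Irf9 at -1.04 ± 0.11 (SE, edgeR adjusted p = 0.000170) and Stat2 at -1.05 ± 0.13 (SE, edgeR adjusted p = 0.000367).

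Without library 1, 22 members were lower in RAS and 5 higher, while 50.2% of all 14088 genes tested were then called, 28.0% higher and 22.1% lower. The median over the members moved from -0.23 with all libraries to -0.50, and over all genes it was 0.02 both times. The fall was deepest in Mx2 (-1.53 ± 0.24, SE), Oas2 (-1.41 ± 0.32) and Mx1 (-1.26 ± 0.23). Mx1, a dynamin-like GTPase, was 48.0, 48.7, 41.5 and 66.8 CPM in Sham and 16.3 and 24.3 CPM in RAS libraries 2 and 3. The sensors Ifih1 (-0.59 ± 0.17) and Zbp1 (-0.45 ± 0.15), Oasl2 (-0.86 ± 0.16), Bst2 (-0.69 ± 0.18), Tap1 (-0.96 ± 0.15), Igtp (-0.50 ± 0.12) and Usp18, the ISG15 protease and receptor inhibitor (-0.48 ± 0.15, all SE), were among the other members called lower. Gbp2 (1.42 ± 0.18), Ifi44 (0.91 ± 0.21), Gbp5 (0.85 ± 0.21), Rsad2 (0.64 ± 0.15) and Irgm1 (0.56 ± 0.14, all SE) were the 5 called higher. The guanylate-binding and IRG group was thus split, with 3 of 5 higher and Igtp lower. Ifit1 (0.24 ± 0.24, SE) and Ifit3 (0.24 ± 0.13, SE) did not pass.

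**Figure D4:**
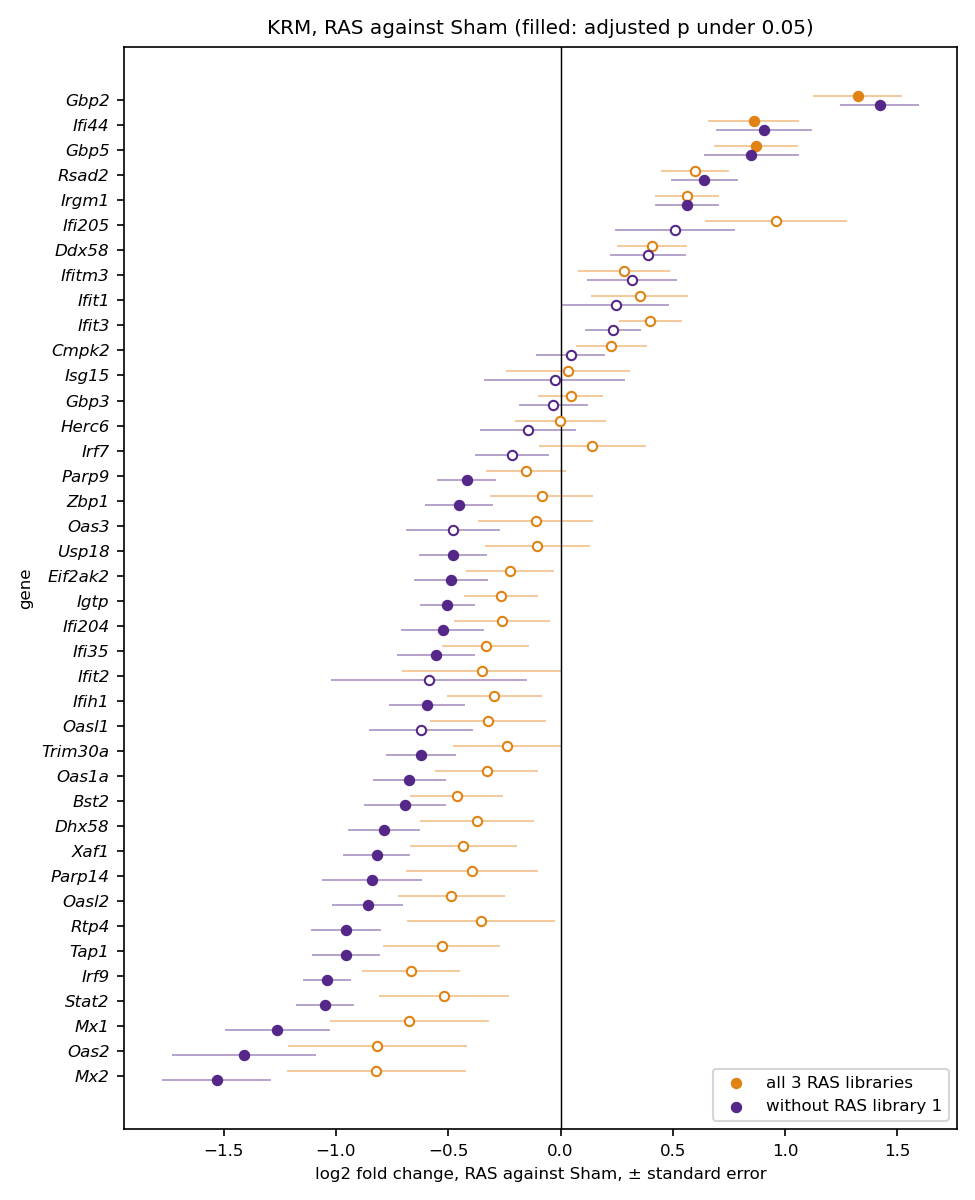
Log2 fold change with its standard error in KRM, RAS against Sham, for each of the 40 genes (rows), with all 3 RAS libraries (orange) and without RAS library 1 (purple). Filled points had an adjusted p under 0.05, 3 with all libraries and 27 without library 1, and the purple points lie further below 0 than the orange ones for most genes in the lower part.

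Markers of other cells moved with the same libraries. General epithelium markers (9 genes) summed to 2287 and 1769 CPM in KRM RAS libraries 2 and 3, 65.8 CPM in library 1 and 12.9 to 87.6 CPM in KRM Sham. Fibroblast and pericyte markers (10 genes) summed to 690.4 and 735 CPM, 46.3 CPM and 21.1 to 44.3 CPM in the same order. Endothelial markers (10 genes) summed to 259 and 226 CPM, 17.7 CPM and 11.1 to 25.1 CPM. None of the 10 thick limb, distal and collecting duct genes was at 0 in every KRM RAS library, while 1 of them was in KRM Sham and 7 had a mean under 1 CPM there. The macrophage identity genes summed to 9853 and 11525 CPM in libraries 2 and 3, 16835 CPM in library 1 and 19560.1 to 27114 CPM in KRM Sham. Conventional dendritic cell markers summed to 611 and 438 CPM in libraries 2 and 3, 179 CPM in library 1 and 126 to 158 CPM in KRM Sham. The 9 plasmacytoid dendritic cell markers, which include the member Bst2, summed to 2009 and 1485 CPM, 282 CPM and 247 to 305 CPM in the same order. Klk1, which is also a tubule gene, made up 1836 and 1315 CPM of the first pair, while Siglech, the defining marker of the list, was 4.35 and 3.12 CPM there, 24.5 CPM in library 1 and 7.58 to 9.92 CPM in KRM Sham. Library 1 in turn held 2118 CPM of B and plasma cell markers, against 597 to 789 CPM in KRM Sham, and 451 CPM of 12 T and NK cell markers, against 79.6 to 109.8 CPM in KRM Sham and 63.5 and 63.1 CPM in libraries 2 and 3. The sum of 10 dissociation stress genes was 17924 to 22682 CPM in KRM RAS and 27429 to 42397 CPM in KRM Sham. Proximal tubule markers summed to 1404 to 2666 CPM in KRM RAS and 1034 to 4472 CPM in KRM Sham, highest in KRM Sham library 3. The part of each of these in the differences of interferon-stimulated genes was not tested.

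**Figure D5:**
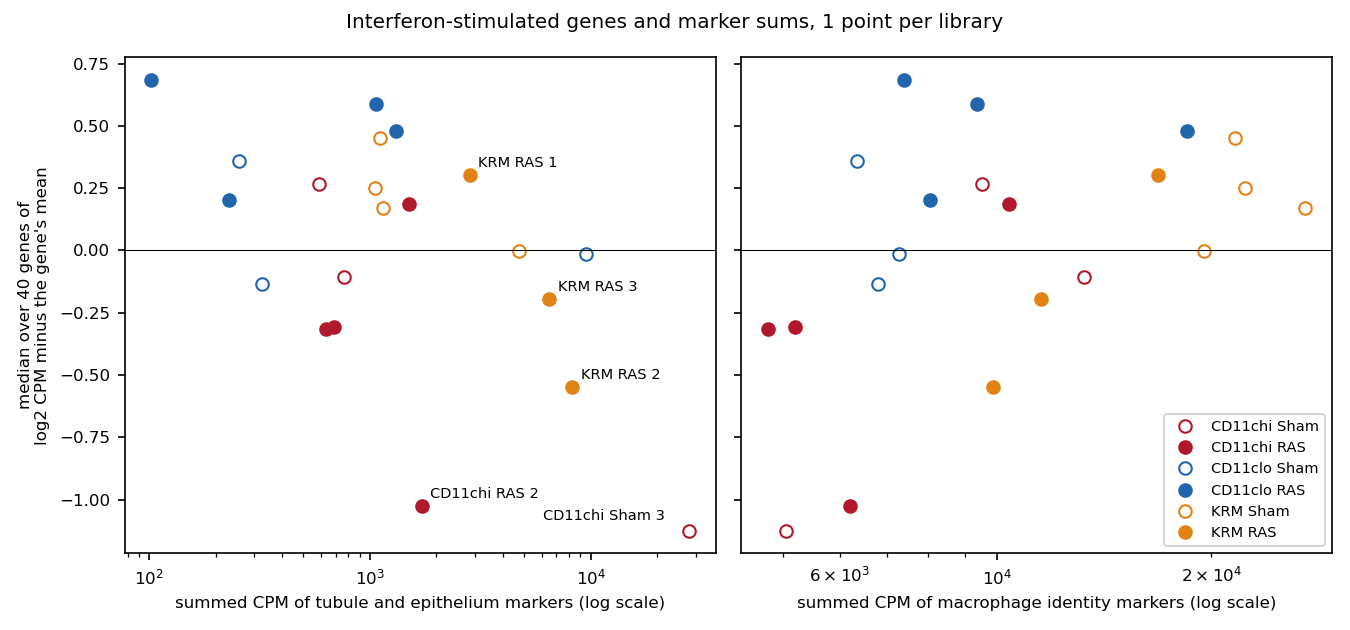
Median over the 40 genes of log2 CPM minus the mean of the gene (vertical) against the summed CPM of tubule and epithelium markers (left) and of macrophage identity markers (right), both on a log scale, with 1 point per library (open Sham, filled RAS). CD11chi Sham library 3, at -1.13, has the highest tubule sum, and KRM RAS libraries 2 and 3 lie below the KRM Sham libraries and KRM RAS library 1.

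In CD11clo cells edgeR called 0 members and 0 of 12301 genes between RAS and Sham. At an unadjusted p under 0.05 there were 6 members (15%), against 8.73% of all genes. DESeq2 called 1, for which no share of all genes is given. The values leaned to the RAS side, with 37 of 40 members (92.5%) above 0 in log2 difference, against 47.2% of all genes, and a median of 0.39, against -0.02. Isg15 was 27.0, 40.6 and 32.6 CPM in CD11clo Sham and 61.9, 59.4, 51.7 and 66.5 CPM in CD11clo RAS. All 4 RAS values were above the Sham values, but the log2 difference of 0.83 ± 0.18 (SE) had an edgeR adjusted p = 0.569. Herc6, the mouse ligase for ISG15, was 24.4, 36.5 and 32.4 CPM against 57.4, 35.1, 61.6 and 58.1 CPM (0.76 ± 0.25, SE, edgeR adjusted p = 0.569). Gbp3 was 81.5, 81.6 and 75.3 CPM against 102, 85.3, 155 and 139.6 CPM (0.59 ± 0.22, SE, edgeR adjusted p = 0.569). The groups did not overlap for 3 of 40 members (7.50%), against 8.41% of all genes. Several marker sums separated the same groups. T and NK cell markers summed to 4.34 to 6.85 CPM in CD11clo Sham and 14.9 to 67.0 CPM in CD11clo RAS, B and plasma cell markers (6 genes) to 178 to 289 and 417 to 516 CPM, endothelial markers to 29.0 to 54.4 and 60.7 to 320.4 CPM, and macrophage identity genes to 6348 to 7265 and 7402 to 18515 CPM. None of these 4 sums overlapped between Sham and RAS, and their part in the lean of the members was not tested. Classical monocyte markers (8 genes) lay the other way with overlap, at 6604 to 14056 CPM in Sham and 3370 to 9319 CPM in RAS, and proximal tubule markers were at 234 to 8838 CPM in Sham and 92.4 to 954 CPM in RAS. Leaving out any of the 7 libraries gave 0 calls and a median between 0.27 and 0.52. The 6 members at an unadjusted p under 0.05 became 1 without CD11clo Sham library 1, 2 without CD11clo RAS library 3 or 4, and 16 without CD11clo RAS library 2. Shares of all genes are not given for these fits, so the numbers show only how far the count moved.

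In CD11chi cells edgeR again called 0 members and 0 of 12739 genes. At an unadjusted p under 0.05 there was 1 member, Gbp2, against 9.48% of all genes, and DESeq2 called 1 (1.02% of all genes). Gbp2 was 61.9, 32.5 and 29.3 CPM in CD11chi Sham and 71.7, 94.2, 212 and 202 CPM in CD11chi RAS, without overlap (1.72 ± 0.48, SE, edgeR adjusted p = 0.523). Gbp5 (1.05 ± 0.50, SE, edgeR adjusted p = 0.524) and Mx2 (-1.16 ± 0.57, SE, edgeR adjusted p = 0.524) followed. The median over the members was -0.09 and over all genes -0.09. It was 0.15 without CD11chi Sham library 1, -0.37 without CD11chi Sham library 3 and -0.31 without CD11chi RAS library 1, and no library left out gave a call. Members at an unadjusted p under 0.05 were 7 without CD11chi RAS library 1, 4 without CD11chi Sham library 1 and 3 without CD11chi RAS library 2. Shares of all genes are not given for these fits, so the counts cannot be read against all genes. T and NK cell markers summed to 24.3 to 51.8 CPM in CD11chi Sham and 88.6 to 328 CPM in CD11chi RAS, without overlap. Conventional dendritic cell markers were highest in RAS libraries 3 and 4, the 2 with the highest Gbp2 (5173 and 5472 CPM, against 443 to 1903 CPM in Sham). The part of these cells was not tested. Gbp2 had a positive difference in all 3 populations and passed in KRM, while its difference between populations did not pass in the tests that follow.

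Whether the response to stenosis differed between populations was tested with interaction terms. No member passed in edgeR. For KRM minus CD11clo cells 0.195% of 13877 genes were called, and 13 members (32.5%) had an unadjusted p under 0.05, against 23.6% of all genes. That number was 4 without KRM RAS library 2, 8 without KRM RAS library 3, 7 without CD11clo Sham library 1 and 24 without KRM RAS library 1. Shares of all genes at that p are not given for these fits, so these counts cannot be read against all genes. DESeq2 called 1. Bst2 (-1.03 ± 0.36, SE, edgeR adjusted p = 0.125), Tap1 (-0.96 ± 0.34, SE, edgeR adjusted p = 0.132) and Mx2 (-1.37 ± 0.51, SE, edgeR adjusted p = 0.140) had the smallest p, and 33 of 40 members were below 0, against 49.2% of all genes. Without KRM RAS library 1, 15 members were lower in KRM, led by Mx2 (-2.08 ± 0.38), Oas2 (-1.84 ± 0.39) and Rtp4 (-1.66 ± 0.40, all SE), with 15.8% of all genes called and 7.73% called lower. For KRM minus CD11chi cells 0 of 14137 genes were called, and 2 members had an unadjusted p under 0.05, against 21.2% of all genes, while DESeq2 called 0. Ifi35 (-0.998 ± 0.40), Ifi44 (1.40 ± 0.60) and Tap1 (-0.82 ± 0.44, all SE) had the smallest p. Without KRM RAS library 1 there were 0 calls among the members and 7.08% among all genes, and the median over the members went from -0.17 to -0.35. It was 0.13 without CD11chi Sham library 3, 0.13 without CD11chi RAS library 1 and 0.04 without KRM RAS library 2, each with 0 calls. For CD11chi minus CD11clo cells 0 of 13540 genes were called, and 2 members had an unadjusted p under 0.05, against 6.60% of all genes, while DESeq2 called 0. Mx2 (-1.61 ± 0.63), Ifi44 (-2.58 ± 1.03) and Ifit2 (-1.79 ± 0.87, all SE) had the smallest p. Members at an unadjusted p under 0.05 were 8 without CD11chi Sham library 3 and 12 without CD11chi RAS library 1, and the median over the members went from -0.35 to -0.69 and -0.54, with 0 calls. Shares of all genes at that p are not given for these fits either.

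Of 40 other genes of the interferon pathway listed, 36 were in the table. KRM against CD11clo cells in Sham gave 9 higher and 7 lower of 30 tested, while 41.7% of all genes were called. The receptor chains Ifnar1 (0.98 ± 0.14), Ifnar2 (1.25 ± 0.13) and Il10rb (1.99 ± 0.15, all SE) were higher in KRM, with Ifnar2 at 495, 459, 382 and 428 CPM against 189, 182 and 176 CPM. The endosomal RNA sensor Tlr3 was higher by 2.89 ± 0.33 (SE) and the factor Irf8 by 0.99 ± 0.15 (SE), with Mavs, Tbk1, Ticam1 and Tlr9. The kinases Jak1 (-0.68 ± 0.17) and Jak2 (-1.11 ± 0.18), the adaptor Myd88 (-1.19 ± 0.21, all SE), Irf2, Socs3 and Cxcl11 were among those lower. The receptor chains of interferon gamma were present in every library, Ifngr1 from 206 to 984 CPM and Ifngr2 from 66.6 to 265 CPM, and passed in no comparison made with all libraries. In stenotic kidneys KRM against CD11chi cells gave 1 higher and 1 lower of 31 tested, while 8.75% of all genes were called. KRM against CD11clo cells gave 1 higher and 3 lower of 31 (8.29% of all genes). The adaptor Mavs was higher in KRM in both (1.17 ± 0.29 against CD11chi and 0.91 ± 0.20 against CD11clo, SE) and Jak2 was lower (-2.32 ± 0.42 and -1.501 ± 0.33, SE). Jak1 and Myd88 were also lower in KRM than in CD11clo cells. Between CD11chi and CD11clo cells Ifng alone was called of 30, higher in CD11chi (8.26% of all genes). Fits of these genes without KRM RAS library 1 are not given.

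Between RAS and Sham 3 of 30 pathway genes were higher in KRM and 0 lower, against 6.80% and 1.74% of all genes. The chemokine Cxcl9, a known target of interferon gamma, was 20.4, 16.8, 15.8 and 23.1 CPM in Sham and 61.3, 47.3 and 51.5 CPM in RAS (1.59 ± 0.16, SE, edgeR adjusted p = 0.00997). Socs1, an inhibitor of JAK signalling, was 7.58, 7.19, 4.24 and 9.30 CPM against 14.3, 16.2 and 12.4 CPM (1.13 ± 0.27, SE, edgeR adjusted p = 0.0463). Ifng itself had 0, 1, 0 and 0 counts in KRM Sham and 155, 14 and 14 in KRM RAS (edgeR adjusted p = 0.0309), and no fold is given because its size depends on the prior count. The library with 155 counts was KRM RAS library 1, which also held the T and NK cell markers given above. Without it Cxcl9, Ifng and Socs1 still passed (edgeR adjusted p = 0.000248, 0.00233 and 0.0156). Without that library 6 of 30 pathway genes were higher and 16 lower, while 28.0% and 22.1% of all genes were, with Ifnar2 (-1.22 ± 0.13, SE) among the lower and Socs3 (1.19 ± 0.13, SE) among the higher. The other 2 populations gave 0 pathway calls in edgeR between RAS and Sham, with 3 of 31 in CD11chi cells and 6 of 30 in CD11clo cells at an unadjusted p under 0.05, against 9.48% and 8.73% of all genes. In CD11chi cells Cxcl9 was 28.3, 19.4 and 26.7 CPM in Sham and 41.2, 93.7, 111 and 109 CPM in RAS (1.74 ± 0.38, SE, edgeR adjusted p = 0.523).

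Among interferon genes, Ifnb1 varied widely between libraries. Ifna2, Ifna4 and Ifna5, the only interferon alpha genes on the list, gave few counts. Ifnb1, which encodes interferon beta, had 619, 15 and 19 counts in CD11chi Sham and 10, 2, 1 and 2 in CD11chi RAS. In CD11clo cells it had 0, 117 and 13 counts in Sham and 17, 11, 8 and 7 in RAS. In KRM it had 178, 193, 29 and 626 counts in Sham and 22, 5 and 17 in RAS. The groups did not overlap in CD11chi cells in CPM and overlapped in the other 2, and Ifnb1 passed in no comparison (edgeR adjusted p = 0.523 in CD11chi cells and 0.0703 in KRM). Ifna2 had 0 to 16 counts per library, Ifna4 had 0 to 3, Ifna5 had 0 to 4, Ifnk had 0 to 1, and Ifne had 0 in all 21.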

How the data were processed

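RNA from 21 libraries of sorted mouse kidney macrophages was amplified with a SMART-Seq v4 kit, made into Nextera XT libraries and sequenced as paired ends. Reads were aligned with OSA to mm10 and Ensembl R83 genes. The authors deposited estimated counts per gene, of which 9.7 to 14.2% per library were not whole, and a quantile-normalised table of log2(TPM + 1). Here the estimated counts were rounded, and lines sharing a symbol were summed. The main test was the quasi-likelihood test of edgeR 4.0.16 in R 4.3.3, with TMM factors, filterByExpr (minimum count 10, minimum total 15) and Benjamini-Hochberg adjustment over all genes tested. A gene was called at an adjusted p under 0.05. Each comparison used its own groups only. Alternatives were DESeq2 1.42.0, limma 3.58.1 on the deposited log2 table, other scaling, no filter, 1 fit over 6 groups, the replicate number as a block, another call rule, and leaving out libraries. Same-numbered Sham libraries of different populations had correlations of at least 0.201 in every pair, but those between other numbers reached 0.227 to 0.482. The highest, 0.542 to 0.647, were between libraries numbered 3. In RAS libraries, and in Sham against RAS, the lowest same-number correlation was 0.076 or less. Whether the numbers pair mice is not known. Scripts were tested on simulated data.

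The members, marker lists and pathway list were chosen with earlier results of these data known. Of the members, 17 were named throughout (Irf7, Irf9, Stat2, Ifih1, Zbp1, Isg15, Usp18, Ifit1, Ifit3, Mx1, Mx2, Oasl2, Bst2, Ifitm3, Gbp2, Igtp and Tap1). To these were added, per comparison and direction, up to 5 called members with the largest changes and no overlap between groups, or, where fewer than 3 passed, the 3 smallest p. Members called after a library was left out, and those lost under the block, were named after their values were seen. A gene of the pathway list is not reported here.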

Additional observations from a re-analysis of the deposited data

Results flagged for a closer look

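A library far from the rest of its group, by Dixon's criterion, was found in 13 of 123 sets tested. The sets were the members and their median in the 3 groups of 4 libraries, since groups of 3 are too small for it. Chance gives about 1 in 20 for a single set, but members of a library move together, so the number of sets found cannot be read against that rate. CD11chi RAS library 1 accounted for 6 of them. It was high for Oasl1 (17.999 CPM), Irf7 (158 CPM), Stat2 (114 CPM), Rtp4 (91.6 CPM) and Ifi204 (106 CPM), and low for Ifitm3 (724 CPM). CD11clo RAS library 1 was high for Irf9 (158 CPM) and Usp18 (102 CPM), and CD11clo RAS library 2 was low for Ifit3 (33.5 CPM) and Herc6 (35.1 CPM). CD11clo RAS library 3 was high for Bst2 (159.9 CPM) and low for Mx1 (49.6 CPM, beside 51.1 to 51.2 CPM in the other 3). KRM Sham library 3 was low for Usp18 (38.9 CPM).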

How the results depend on the processing

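Among repeated values of the members that the rule adds per comparison, 642 kept their side of the threshold, 102 lost and 30 gained a call, and none turned in sign. Members outside that set were not counted, and Isg15, for example, in KRM between RAS and Sham went from 0.03 to -0.03 (log2) without RAS library 1 and passed in neither. Of the repeated counts of members called, 133 stayed within 1.5 times and 67 did not. For RAS against Sham in CD11chi cells the count was 1 with DESeq2. It was also 1 with the rule of an unadjusted p under 0.05 and a fold above 2. That rule called 7.78% of all genes there, and 4.05 to 25.1% by comparison. In CD11clo cells the count was 1 with DESeq2, without a share of all genes beside it, and 2 with the p and fold rule (4.05%). In KRM, where 3 members were called, the count was 1 without the filter and 1 in the fit over 6 groups, for which no share of all genes is given. It was 1 with the p and fold rule (16.3% of all genes) and 8 with DESeq2 (7 higher and 1 lower, with 14.0% and 5.66%). With limma it was 8 (1 higher and 7 lower, with 7.88% and 10.7% of all genes). It was 25 with limma without RAS library 1 (4 higher and 21 lower, with 20.3% and 32.1%), an alternative chosen after seeing the data. For KRM against CD11chi cells in Sham, DESeq2 gave 5 (9.07% of all genes), limma 3 (2.77%), leaving out the Sham libraries numbered 3 gave 5 (12.5%) and the p and fold rule 3 (12.3%). KRM against CD11clo cells in Sham gave 10 in the fit over 6 groups (23.9% of all genes) and 11 by the p and fold rule (25.1%). CD11chi against CD11clo cells in Sham gave 2 in the fit over 6 groups (5.58%), 4 with DESeq2 (5.56%), 4 without the libraries numbered 3 (16.2%) and 5 by the p and fold rule (12.5%). In stenotic kidneys KRM against CD11chi cells gave 4 in the fit over 6 groups (14.7%), 5 with DESeq2 (14.8%), 1 with limma (4.08%) and 6 by the p and fold rule (20.6%). KRM against CD11clo cells gave 18 with limma without library 1 (25.0%), and CD11chi against CD11clo cells gave 13 with DESeq2 (10% of all genes) and 10 by the p and fold rule (14.1%). Differences in response were 1 for KRM minus CD11chi cells and 2 for CD11chi minus CD11clo cells by the p and fold rule. For KRM minus CD11clo cells they were 1 with DESeq2 (6.49%), 9 with limma (10.4%), 18 with limma without library 1 (28.0%) and 6 by the p and fold rule (16.1%). The limma counts use the column of KRM RAS library 1 that did not match its counts, except where it was left out. The median log2 difference of all genes in KRM between RAS and Sham was 0.02 in edgeR, 0.13 with DESeq2 and -0.15 with limma. The cause of these moves was not tested.

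The replicate number as a block left 0 calls in KRM between RAS and Sham (0.311% of all genes) and 0 for KRM against CD11chi cells in stenotic kidneys (0.741%), gave 5 for KRM against CD11clo cells (7.79%) and 12 for CD11chi against CD11clo cells there (10.2%), and 1 for CD11chi against CD11clo cells in Sham (4.82%). The KRM against CD11chi calls were lost at an adjusted p of 0.0753 for Ifitm3 and 0.0776 for Ifi205. In the comparisons of RAS libraries the lowest same-number correlation was 0.053 to 0.073 and the highest between other numbers 0.159 to 0.366, so the numbers were not taken to pair them, and whether they do is not known. For Sham libraries these values were 0.201 to 0.349 and 0.227 to 0.482, so whether the Sham numbers pair them is not known either.

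Leaving out 1 library at a time gave 0 to 0 calls for RAS against Sham in CD11chi and in CD11clo cells and 0 to 27 in KRM. In Sham it gave 1 to 5 for KRM against CD11chi cells, 13 to 23 for KRM against CD11clo cells and 0 to 2 for CD11chi against CD11clo cells. In RAS it gave 0 to 13, 0 to 16 and 1 to 19 in the same order. Differences in response gave 0 to 15 for KRM minus CD11clo cells and 0 to 0 for the other 2. These ranges carry no shares of all genes, which also changed with the library left out, so they show only how far the counts moved. With 3 or 4 libraries per group a miss does not show that levels were alike.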
